A study of Mus musculus with 2 samples.

Results

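Mitosis and spindle genes were examined in rib chondrocytes of 5-day-old mice, as a set of 47 genes listed by function: cyclins of G2 and mitosis, mitotic kinases, kinetochore and passenger proteins, kinesins, spindle and cytokinesis factors, and condensin. A probe set was taken for a member when the platform annotation tied it to that gene symbol alone. This gave 46 member genes with 100 probe sets, of 18193 genes and 45037 probe sets in all, and the cyclin B1 gene Ccnb1 was not analysed here. The mutant cells came from mice with the V156D knock-in of Matn1, which encodes the cartilage matrix protein matrilin-1, and they were set against cells of wild-type mice. Each genotype was represented by 1 Affymetrix array. Rib chondrocytes were released with collagenase, and the series' design text describes cells of 5 littermates pooled before RNA extraction. The labels do not state the sex of the mice, nor whether the mutant allele was on 1 or both chromosomes. Each array was therefore 1 pool, no replicate error exists, and no test or p-value is given. The values describe these 2 arrays, and the genotype and anything else that set the pools apart cannot be told apart.

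In the growing cartilage of the rib, a layer of flattened chondrocytes divides and stacks its daughters into columns before the cells enlarge. The kinase CDK1, activated by A- and B-type cyclins, drives cells out of G2 into mitosis. There the chromosomes condense and spindle microtubules attach to kinetochores under the control of a checkpoint. Ubiquitin-dependent destruction of securin and cyclin B by the anaphase-promoting complex then separates the sister chromatids, and cytokinesis divides the cell. The RNAs of these proteins accumulate in G2 and mitosis and are low in cells that have left the cycle, so they are widely used as markers of dividing cells.

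Many genes of this class share a promoter element, the cell cycle genes homology region or CHR, with the core TTTGAA. It is bound by the LIN54 subunit of the MuvB complex, which represses in resting cells and activates together with B-MYB and FOXM1 in dividing ones. CCAAT boxes, bound by the trimeric factor NF-Y, commonly lie upstream of it. Promoters from RefSeq (GRCm38.p6), spanning 250 bases before to 50 bases after each annotated start, were found for 39 of the 46 measured members, with 41 promoters. TTTGAA on either strand was present in 34 of these 41 (82.9%), against 17.9% of all 32851 promoters of the same length. CCAAT on either strand was present in 32 of 41 (78%), against 37.4% of all promoters. Both motifs were present in 30 of 41 (73.2%), against 6.95% of all. Matches of the motifs were allowed to overlap. The members were listed as G2 and mitosis genes, so these shares describe which kind of promoter the set holds, and a match is not a bound site.

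The same windows were read for other cell cycle genes. Among 75 promoters of other genes of mitosis, TTTGAA was present in 28 (37.3%), CCAAT in 43 (57.3%) and both in 18 (24%). Among 44 promoters of DNA replication and S phase genes, TTTGAA was present in 8 (18.2%), near the share of all promoters, CCAAT in 25 (56.8%), above it, and both in 3 (6.82%). The E2F-type motifs TTTGGCGC, TTTCCCGC and TTTCGCGC, which E2F factors bind in S phase genes, were present on either strand in 14 of those 44 (31.8%). They were present in 4 of the 41 member promoters (9.76%) and in 1.84% of all promoters.

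The members whose TTTGAA lay wholly within the 40 bases before the annotated start are shown here, because the element and its CCAAT boxes can be read in 1 stretch. Each line gives the 120 bases before the start, 5′ to 3′ on the strand of the gene, in GRCm38.p6 coordinates. Capitals mark TTTGAA or its reverse complement TTCAAA, and CCAAT or its reverse complement ATTGG.
Cdk1 (chr10:69352913-69353032, minus strand): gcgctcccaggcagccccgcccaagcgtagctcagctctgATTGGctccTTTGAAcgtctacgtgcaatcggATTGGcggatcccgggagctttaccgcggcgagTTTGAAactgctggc
Cdc20 (chr4:118437344-118437463, minus strand): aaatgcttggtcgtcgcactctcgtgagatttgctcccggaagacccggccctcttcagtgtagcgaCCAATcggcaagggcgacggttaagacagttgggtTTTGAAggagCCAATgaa
Ube2c (chr2:164769809-164769928, plus strand): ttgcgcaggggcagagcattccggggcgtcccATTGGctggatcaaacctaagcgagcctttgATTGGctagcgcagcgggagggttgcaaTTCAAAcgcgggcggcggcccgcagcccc
Espl1 (chr15:102296173-102296292, plus strand): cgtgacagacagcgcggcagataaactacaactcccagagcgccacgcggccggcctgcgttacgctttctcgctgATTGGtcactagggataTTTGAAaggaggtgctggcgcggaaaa
Kif11 (chr19:37376262-37376381, plus strand): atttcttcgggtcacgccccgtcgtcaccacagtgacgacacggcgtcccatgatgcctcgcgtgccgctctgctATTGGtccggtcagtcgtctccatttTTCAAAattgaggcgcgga
Kif15 (chr9:122950961-122951080, plus strand): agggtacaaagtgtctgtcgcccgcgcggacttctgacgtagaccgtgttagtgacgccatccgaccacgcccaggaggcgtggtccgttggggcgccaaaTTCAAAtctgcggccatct
Kif22 (chr7:127042421-127042540, minus strand): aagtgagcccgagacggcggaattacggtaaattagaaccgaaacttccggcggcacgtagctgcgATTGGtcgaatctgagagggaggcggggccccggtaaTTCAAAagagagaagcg
Prc1 (chr7:80294356-80294475, plus strand): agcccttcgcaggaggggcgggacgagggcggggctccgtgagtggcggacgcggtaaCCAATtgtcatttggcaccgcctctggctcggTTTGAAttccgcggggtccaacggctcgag
Top2a (chr11:99024190-99024309, minus strand): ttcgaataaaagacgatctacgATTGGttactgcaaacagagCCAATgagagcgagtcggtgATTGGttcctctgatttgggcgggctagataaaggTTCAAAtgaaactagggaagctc
Ncapg (chr5:45669805-45669924, plus strand): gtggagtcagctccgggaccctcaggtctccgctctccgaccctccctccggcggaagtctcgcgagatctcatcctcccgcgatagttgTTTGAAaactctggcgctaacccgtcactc

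In 8 of these 10 stretches a CCAAT box lay upstream of the TTTGAA closest to the start, and the first bases of the pair of motifs were 17 to 37 bases apart. Kif15 and Ncapg held no CCAAT in the stretch shown. Among the 39 measured members with a promoter, median ratios with and without TTTGAA were close, and a difference was not tested. No promoter was found for Ccna2, Aurkb, Kif20a, Tpx2, Incenp, Smc4 and Pbk. These include high log2 ratios, at 0.53 for Tpx2, 0.52 for Kif20a and 0.44 for Aurkb, and a low one, at 0.04 for Smc4. The 32 members with TTTGAA had a median log2 ratio of 0.26, with 31 above 0, and the 7 members without it had a median of 0.27, with 7 above 0.

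The mitosis and spindle genes had slightly higher signals in the mutant array, in nearly every member and by small amounts. With each gene represented by its probe set of highest mean log2 signal, 45 of 46 members had a log2 ratio of mutant over wild type above 0, where 47.3% of all genes were above 0. The median log2 ratio of the members was 0.27, a 1.21-fold difference, and the median of all genes was -0.01. None of the members was at least 1.5-fold higher, where 1.53% of all genes were, and none was at least 1.5-fold lower, where 1.61% were. None reached 2-fold higher either, where 0.484% of all genes did. At a threshold of 1.2-fold, 24 members were higher and 0 lower, where 9.31% of all genes were higher and 11.8% lower. Averaging all probe sets of each gene also left 45 members above 0, where 48.6% of all genes were, with a median of 0.20. Ratios and rankings of genes are those of the brightest probe sets unless means are named.

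Signal strength was considered next, since weak probe sets carry little information. Probe sets were ranked by their mean log2 signal, the 50th percentile (an intensity of 54.6) served as a floor, and 42 members lay at or above it. Of these, 41 were above 0, where 44.8% of the 11329 genes at or above the floor were. The 4 members below the floor were Kif15, Kif20a, Ndc80 and Ncapg. Just inside the floor were Cenpe, with intensities of 64.5 in the mutant array and 52.8 in wild type, and Kif2c, with 69.7 in the mutant array and 58.4 in wild type. Just outside it were Kif20a, with 64.5 in the mutant array and 45.0 in wild type, and Kif15, with 57.0 in the mutant array and 48.3 in wild type. Genes within the signal range of the members were above 0 in 46.2% of 10729 cases. The central 95% of all log2 ratios at or above the floor ran from -0.55 to 0.49. Single members therefore lay within the ordinary scatter between the arrays, apart from Tpx2 among those at or above the floor.

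**Figure D1:**
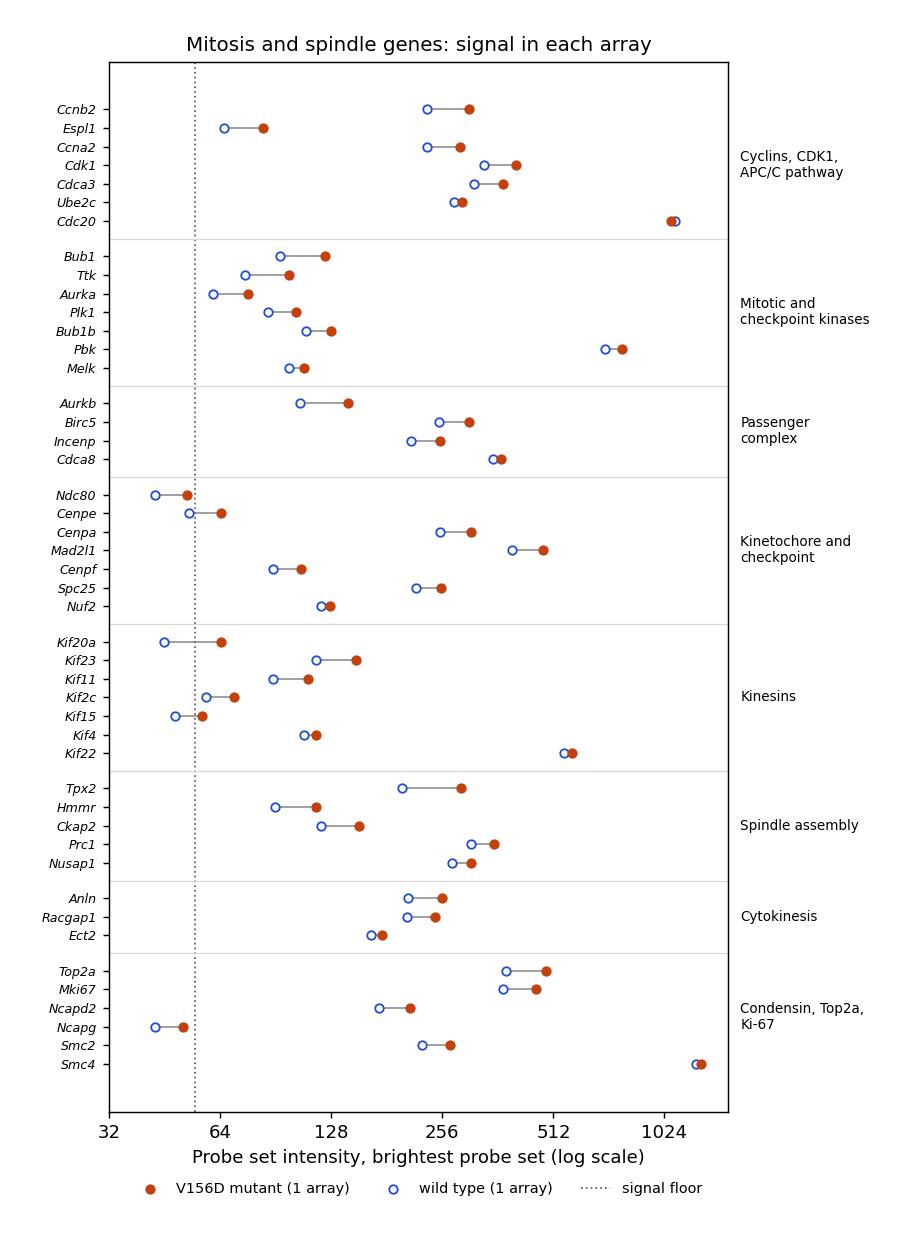
Intensity of the brightest probe set of each of the 46 mitosis and spindle genes (log scale), in the V156D mutant array (filled) and the wild-type array (open), grouped by role; the dotted line is the signal floor of 54.6. The mutant point lies right of the wild-type point in 45 of 46 genes, Cdc20 being the exception.

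Cyclins, CDK1 and the machinery of mitotic exit had a median log2 ratio of 0.29, with 6 of 7 measured genes above 0. Ccnb2, which encodes cyclin B2, an activator of CDK1, had intensities of 302 in the mutant array and 233 in wild type, a log2 ratio of 0.37 and the highest of this role. Ccna2, the cyclin of S phase and G2, had 285 in the mutant array and 232 in wild type, and its probe sets gave log2 ratios of 0.29 and 0.42. Cdk1, the kinase that drives entry into mitosis, had 405 in the mutant array and 331 in wild type, a log2 ratio of 0.29. These genes were thus higher together in the mutant array, each by about the same factor. Espl1, which encodes separase, the protease that cuts cohesin at anaphase, had a log2 ratio of 0.35. Cdca3, which takes part in the degradation of the CDK1 inhibitor WEE1, had 0.27 with its brightest probe set and 0.07 as the mean over 3 probe sets.

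A pair of genes that act with the anaphase-promoting complex had brightest probe sets close to 0. Cdc20, an activator that recruits substrates to the complex, had intensities of 1065 in the mutant array and 1093 in wild type, a log2 ratio of -0.04. It was the lowest member, but its other probe sets gave 0.19 and -0.16, and its ratio was 0.04 after quantile normalization and 0.02 after a loess correction for signal. The direction of Cdc20 was not settled. Ube2c, the ubiquitin-conjugating enzyme of the complex, had 290 in the mutant array and 276 in wild type, a log2 ratio of 0.07.

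All 7 kinases of mitosis and the checkpoint were above 0, with a median of 0.25. Bub1, a checkpoint kinase of the kinetochore, had intensities of 123 in the mutant array and 93.0 in wild type, a log2 ratio of 0.41 that was 0.24 as the mean over its probe sets. Ttk, the kinase that starts the spindle checkpoint, had 98.2 in the mutant array and 74.5 in wild type. Both probe sets of Ttk were high in the mutant array, at 0.40 and 0.52. Aurka, the kinase of spindle poles, had a log2 ratio of 0.32, and Plk1, a kinase acting from mitotic entry to cytokinesis, had 0.25. Bub1b, a checkpoint protein that inhibits the anaphase-promoting complex, had 0.23. The lowest of the role were Pbk and Melk, kinases abundant in proliferating cells. Pbk had 784 in the mutant array and 705 in wild type, a log2 ratio of 0.16, and Melk had 108 in the mutant array and 98.0 in wild type, a log2 ratio of 0.14.

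The 4 subunits of the chromosomal passenger complex, which corrects faulty attachments at the centromere and later directs cytokinesis, had a median of 0.26. Aurkb, its kinase, was highest, with intensities of 142 in the mutant array and 105 in wild type, a log2 ratio of 0.44. Incenp, its scaffold, was measured by 5 probe sets, which ranged from 0.16 to 0.28 and averaged 0.23 ± 0.05 (SD over probe sets, not over samples). Birc5, which encodes survivin, had 302 in the mutant array and 250 in wild type, a log2 ratio of 0.27. By the brightest probe sets the subunits ran from 0.08 to 0.44, and a difference between them was not tested. A second, weaker probe set of Aurkb gave 0.21. Cdca8, which encodes borealin, had 370 in the mutant array and 351 in wild type, a log2 ratio of 0.08, and its 3 probe sets ranged from -0.07 to 0.16.

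At the kinetochore all 7 members were above 0 by their brightest probe sets, with a median of 0.28, which was 0.14 when probe sets were averaged. Mad2l1, a checkpoint protein that binds CDC20, had intensities of 480 in the mutant array and 395 in wild type, a log2 ratio of 0.28. Cenpa, the histone H3 variant of centromeres, had 307 in the mutant array and 253 in wild type, and weak probe sets at -0.17 and 0.32. Cenpe, a kinesin-like motor of the kinetochore, had 64.5 in the mutant array and 52.8 in wild type, and its log2 ratio of 0.29 was the highest of this role at or above the floor. A second, weaker probe set of Cenpe gave -0.05. Cenpf, a large protein of the outer kinetochore, had a log2 ratio of 0.26, with weaker probe sets at -0.31 and 0.35. The brightest probe sets of these genes were thus closer together than the weak ones.

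Subunits of the NDC80 complex, the main microtubule anchor of the kinetochore, were all 4 measured once Spc24, which is no member, was included. Ndc80 had intensities of 52.1 in the mutant array and 42.5 in wild type, below the floor in both. Spc25 had 254 in the mutant array and 217 in wild type, a log2 ratio of 0.23. Nuf2 had 127 in the mutant array and 120 in wild type, a log2 ratio of 0.08, the lowest of the kinetochore genes. Spc24 had 0.20, so the 4 subunits ran from 0.08 to 0.30 in the same direction.

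Mitotic kinesins move chromosomes and slide spindle microtubules, and all 7 were above 0, with a median of 0.25 by the brightest probe sets and 0.14 by the means. Kif20a, a kinesin of the central spindle, had intensities of 64.5 in the mutant array and 45.0 in wild type. Its log2 ratio of 0.52 was the highest among kinesins, but it rests on 1 probe set with a mean signal below the floor. Kif23, the motor subunit of centralspindlin, had 149 in the mutant array and 116 in wild type, a log2 ratio of 0.36. Kif11, the motor that separates the spindle poles, had 111 in the mutant array and 89.2 in wild type by its brightest probe set. Its other probe sets gave -0.07 and -0.05, so its mean of 0.06 was near 0. Kif2c, which depolymerises microtubules at centromeres, had 0.25, and Kif15, which helps to keep a bipolar spindle, had 0.24. The chromosome-arm kinesins were lowest by the brightest probe sets, whereas Kif11 was lowest by the means. Kif22 had 575 in the mutant array and 548 in wild type, a log2 ratio of 0.07, and Kif4 had 116 in the mutant array and 108 in wild type, a log2 ratio of 0.10. Both had a mean of 0.10.

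Spindle assembly factors had a median of 0.34, with 5 of 5 above 0. This was the highest role median by the brightest probe sets but not by the means, where it was 0.28, against 0.29 for the cyclin role and for the chromosome structure role. Tpx2, which activates Aurora A and nucleates spindle microtubules, had intensities of 288 in the mutant array and 199 in wild type, a log2 ratio of 0.53 and the highest of all members. Its second probe set gave 0.44, whereas the other 2 gave 0.05 and 0.09, so that the 4 averaged 0.28 ± 0.24 (SD over probe sets). The highest member thus rested on a pair of its probe sets. Hmmr, a spindle protein also known as a hyaluronan receptor, had 116 in the mutant array and 89.9 in wild type. All 5 probe sets of Hmmr were above 0, from 0.16 to 0.61, with a mean of 0.40. Ckap2, a microtubule stabiliser, had a log2 ratio of 0.34, and Prc1, which bundles the central spindle, had 0.21. Nusap1, a microtubule-binding protein of spindles, had 307 in the mutant array and 272 in wild type, a log2 ratio of 0.18, the lowest of the role.

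The cytokinesis genes were 3, all above 0, with a median of 0.26 by the brightest probe sets and 0.14 by the means. Anln, which encodes anillin, a scaffold of the contractile ring, had intensities of 256 in the mutant array and 207 in wild type, a log2 ratio of 0.31. A weak second probe set of Anln gave -0.03. Racgap1, the partner of Kif23 in centralspindlin, had 245 in the mutant array and 205 in wild type, and its 3 probe sets were all above 0, from 0.08 to 0.28. Ect2, the exchange factor that activates RhoA at the cell equator, had 176 in the mutant array and 164 in wild type, a log2 ratio of 0.09.

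Genes of chromosome structure had a median of 0.27, with 6 of 6 above 0. Mki67, which encodes the Ki-67 protein on the surface of mitotic chromosomes, had intensities of 458 in the mutant array and 374 in wild type, a log2 ratio of 0.29. Top2a, the topoisomerase that untangles sister chromatids, had 489 in the mutant array and 380 in wild type, a log2 ratio of 0.37 by its brightest probe set. Its other probe sets gave 0.15 and, far below the floor, -0.37, so that the mean over probe sets was 0.05 ± 0.38 (SD over probe sets).

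The ratios of the condensin genes were of unlike size in these 2 arrays. Smc2 and Smc4 encode the paired core ATPases of condensin. Smc2 had intensities of 269 in the mutant array and 226 in wild type, and its 5 probe sets were all above 0, from 0.25 to 0.60, with a mean of 0.47 ± 0.17 (SD over probe sets). Smc4 had 1284 in the mutant array and 1246 in wild type, and its 3 probe sets lay between 0.00 and 0.04. The Smc2 probe sets at or above the floor gave 0.25 and 0.58, and its remaining probe sets lay below the floor. Probe sets of a gene share the same arrays, so a difference between these partners was not tested. Ncapd2, a regulatory subunit of condensin I, had 209 in the mutant array and 172 in wild type, with probe sets at 0.28 and 0.29. Ncapg, another, was below the floor at 50.8 in the mutant array and 42.6 in wild type, with probe sets at 0.25 and 0.52. Ncaph, the remaining condensin I subunit and no member, had 0.25, or 0.16 as the mean over its probe sets. The condensin II genes Ncapg2, Ncapd3 and Ncaph2 had 0.07, -0.13 and 0.24 by their brightest probe sets. Their means were 0.07, 0.04 and 0.19.

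The probe sets gave a view of the measurement error within the arrays. Of the 100 member probe sets, 86 were above 0, where 48.8% of all probe sets with 1 gene were. At or above the floor the count was 57 of 61, with a median log2 ratio of 0.26, where 45.3% of such probe sets were above 0. Below the floor it was 29 of 39, with a median of 0.16, where 53.3% were. At least 1.5-fold higher were 3 probe sets, 1 of Hmmr and 2 of Smc2, where 1.52% of all probe sets with 1 gene were, and 0 were 1.5-fold lower. All 3 lay below the floor, where 1.43% of probe sets with 1 gene were that much higher.

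Of the 29 members with several probe sets, 17 had every probe set above 0, where 21.5% of the 9010 genes with several probe sets did. The 17 members with 1 probe set were all above 0. The log2 ratios had an SD of 0.12 over members, and a member's 2 brightest probe sets differed in ratio with an SD of 0.24 over 29 members. Pearson's r between those 2 probe sets was 0.16 across the 29 members, which share the same 2 arrays. The SD of 0.24 is that of a difference between probe sets, so it is not on the same scale as the SD of 0.12. Several of the second probe sets lay below the floor, such as that of Bub1, with 8.43 in the mutant array and 8.06 in wild type. With 1 array per genotype, the order of the members by ratio was not resolved. Members with brighter probe sets had lower ratios, with Pearson's r of -0.44 between log2 ratio and mean log2 signal across 46 members. The signal of a probe set also depends on its sequence, and genes are not independent replicates.

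**Figure D2:**
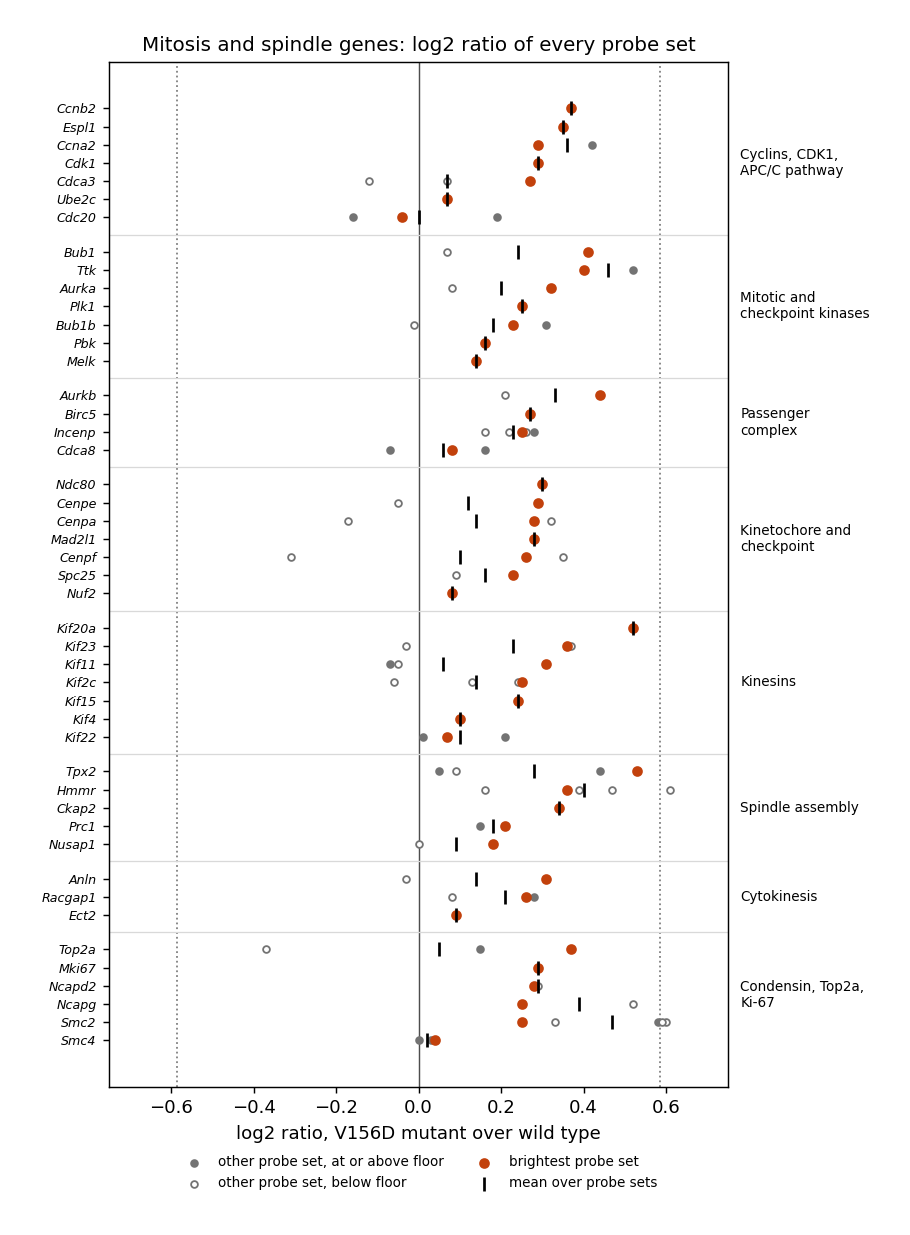
Log2 ratio of V156D mutant over wild type for each of the 100 probe sets of the 46 members, grouped by role; orange points are the brightest probe set, grey points the other probe sets (open below the floor), black bars the mean over probe sets and dotted lines 1.5-fold. Of all points, 86 lie above 0, and the open points spread from -0.37 to 0.61.

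Other genes of mitosis, listed by function and not members, had a lower median and a wider spread. Of 78 measured, 49 were above 0 and 28 below, with a median log2 ratio of 0.10 and an SD over genes of 0.21. Of all genes, 47.3% were above 0. At 1.2-fold, 14 genes of this list were higher and 4 lower, where 9.31% of all genes were higher and 11.8% lower. Fbxo5, which encodes EMI1, an inhibitor of the anaphase-promoting complex, was highest at or above the floor, with intensities of 93.5 in the mutant array and 63.5 in wild type, a log2 ratio of 0.56. Ccnf, which encodes the F-box protein cyclin F, was lowest, with 57.9 in the mutant array and 84.7 in wild type, a log2 ratio of -0.55. Whether this list differed from the members beyond error was not tested, as there is 1 array per genotype. Both the members and this list were chosen with earlier results of these data known.

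DNA replication genes were near 0 by their median of 0.05, with 27 of 44 above 0, where 47.3% of all genes were. Uhrf1, which maintains DNA methylation behind the fork, was highest at 0.40, or 0.12 as the mean over its probe sets, and the helicase gene Mcm4 was lowest at -0.53. The 10 G1 cyclins, CDKs and drivers had a median of 0.02, from Ccnd1, the cyclin D1 gene, at 0.20 to Myc, a growth-promoting transcription factor, at -0.44. The 16 CDK inhibitors, pocket proteins and other brakes on division had a median of -0.04, with 7 above 0 against 47.3% of all genes. Rbl1, a pocket protein, was highest at 0.23, and Rb1, the retinoblastoma gene, was lowest at -0.37.

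The transcription factors that act on G2 and M promoters were near 0 as a list. Their median was 0.04, with 11 of 19 above 0, where 47.3% of all genes were. By the means the list median was also 0.04, with 12 above 0, where 48.6% of all genes were. Foxm1, named after its value was seen, had intensities of 115 in the mutant array and 110 in wild type, a log2 ratio of 0.07 that was 0.25 as the mean over 4 probe sets. Mybl2, which encodes B-MYB and was also named after its value was seen, lay below the floor with a log2 ratio of 0.04. Its mean over 2 probe sets was 0.18, so by the means Foxm1 and Mybl2 stood beside the members' median of 0.20. At or above the floor, E2f1 was highest at 0.29 and E2f3, also an E2F activator, lowest at -0.39.

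**Figure D3:**
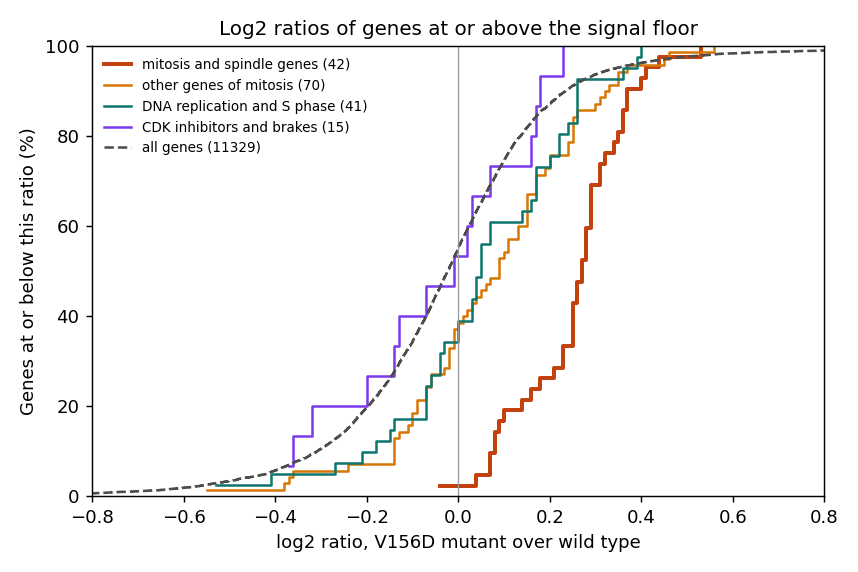
Cumulative share of genes (%) by log2 ratio of V156D mutant over wild type, for genes at or above the signal floor: 42 mitosis and spindle genes, 70 other genes of mitosis, 41 replication genes, 15 CDK inhibitors and brakes, and all 11329 genes. The curve of the mitosis and spindle genes lies to the right, with a median of 0.27 against -0.02 for all genes.

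The cells of the arrays were checked with marker lists, since dividing cells of another type would add to the same signals. The arrays had median intensities of 55.1 for the mutant and 54.3 for wild type. The 15 chondrocyte markers had a summed intensity of 177809 in the mutant array and 177443 in wild type. Their median log2 ratio was 0.02, with 9 above 0, where 47.3% of all genes were. These markers ran from Ucma at -0.38 to Col11a2 at 0.15. Col2a1, the main collagen of cartilage, had intensities of 29057 in the mutant array and 27997 in wild type. The tissue label thus fitted its markers in both arrays.

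Markers of fibrous tissue and vessels were higher in the same array as the mitosis genes. Of all genes, 47.3% were above 0 and 1.53% were at least 1.5-fold higher. Of 21 fibroblast, tendon and perichondrium markers, 18 were above 0 and 11 at least 1.5-fold higher, with a summed intensity of 136071 in the mutant array and 102632 in wild type. Kera, the keratocan of tendon and cornea, was highest at 1.79 and Pdgfra, a fibroblast receptor, lowest at -0.10. Of 12 endothelial markers, 11 were above 0 and 7 at least 1.5-fold higher, with a summed intensity of 1399 in the mutant array and 950 in wild type. Among the 8 endothelial markers at or above the floor, 7 were above 0 and 4 at least 1.5-fold higher. Cdh5, the cadherin of vessel walls, was highest at 1.39, or 0.75 as the mean over 2 probe sets. Egfl7 was lowest at or above the floor at -0.19, or 0.06 as the mean over 4 probe sets. Of 6 osteoblast markers, 6 were above 0, with a summed intensity of 7265 in the mutant array and 2966 in wild type, from Sp7 at 0.09 to the collagen gene Col1a1, also on the fibroblast list, at 1.35. Col1a1 carried that sum, and the other 5, of which 3 lay below the floor, summed to 254 in the mutant array and 207 in wild type. The part of these lists in the higher mitosis signals was not tested. In such bulk RNA, fewer cells of a type and less RNA per cell cannot be told apart.

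With genes below the floor included, 47.3% of all genes were above 0, and markers of blood cells and muscle had list medians near 0. These were 0.04 for macrophages and leukocytes, -0.06 for red cells and -0.01 for muscle. At or above the floor 44.8% of genes were above 0. The 6 muscle markers there had a median of -0.44, with 1 above 0 and 5 below. The medians there were 0.01 for 5 macrophage and leukocyte markers and -0.15 for 3 red cell markers. The 11 macrophage and leukocyte markers had a summed intensity of 1749 in the mutant array and 2042 in wild type, with 7 above 0, from Cd14 at -0.34 to Laptm5 at 0.20 at or above the floor. Without Cd14, the brightest, the sum was 562 in the mutant array and 542 in wild type. The 7 red cell lineage markers had a summed intensity of 1832 in the mutant array and 1983 in wild type, with 3 above 0, from Epor at -0.23 to Alas2 at 0.31. Without Tfrc, the brightest, it was 323 in the mutant array and 315 in wild type, so the direction of both sums rested on 1 gene. The 12 skeletal muscle markers had a summed intensity of 2182 in the mutant array and 2807 in wild type, with 5 above 0, from Myod1 at -0.74 to Des at 0.45, and without Tnnt3, the brightest, 794 in the mutant array and 877 in wild type. Sex-linked transcripts also differed, Xist with intensities of 5006 in the mutant array and 7755 in wild type and the Y-linked Eif2s3y with 490 in the mutant array and 230 in wild type. The sex composition of the pools and the genotype cannot be told apart.

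**Figure D4:**
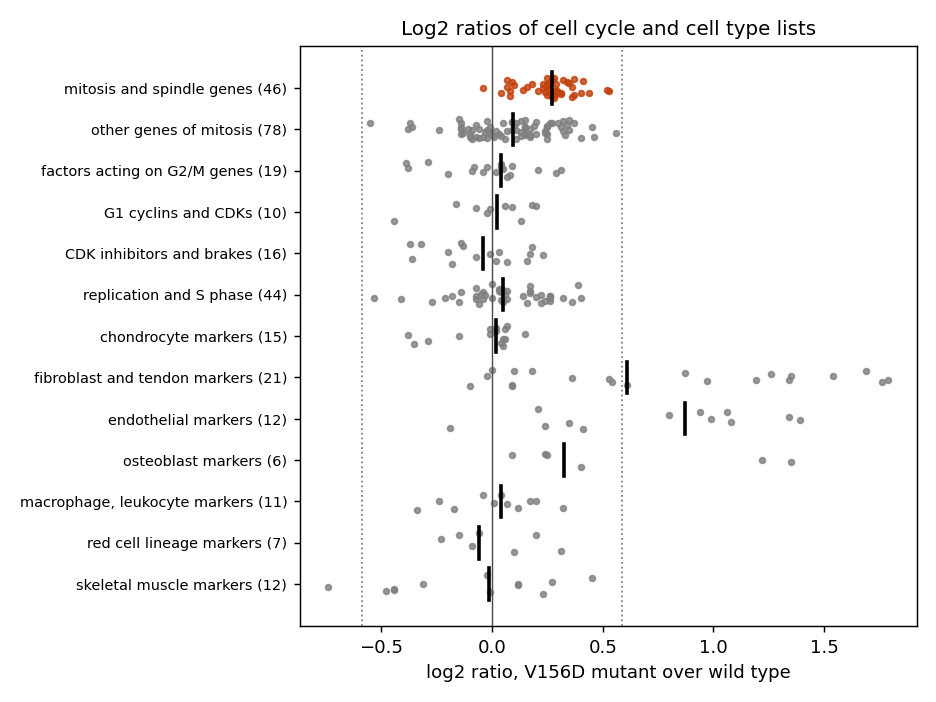
Log2 ratio of V156D mutant over wild type for every measured gene of 13 cell cycle and cell type lists (number of genes in brackets), 1 point a gene, with black bars at list medians and dotted lines at 1.5-fold. The mitosis and spindle genes form a narrow band with a median of 0.27, whereas fibroblast and endothelial markers spread to 1.79 and 1.39.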

How the data were processed

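RNA of 2 arrays, 1 per genotype, was compared. The deposited values are linear probe set intensities, and MAS5 is named without a version per the submitters' processing notes. Scaling and detection calls are not stated there. Gene symbols came from GEO's annotation of the platform and were checked by Entrez identifier in RefSeq (GRCm38.p6). Of 45037 probe sets, 34945 had 1 symbol, 932 several and 9160 none, and 34741 of the first were found in RefSeq with 0 names changed. The log2 of each deposited intensity was used without normalization. A gene was represented by its probe set of highest mean log2 signal and by the mean over its probe sets. The floor was the 50th percentile of mean log2 signal, 5.77. With 1 array per genotype, the number of arrays limits precision, and counts past 1.5-fold replaced tests. The members and lists were chosen with earlier results of these data known. Fully described were members past 1.5-fold, the highest and lowest of each role at or above the floor, and any whose brightest and mean ratios differed in sign; of other lists, the highest and lowest at or above the floor. The remaining members are given with fewer values. Subunit groupings were chosen after the values were seen. The alternatives are given in the closing section. The code was tested on simulated data. Python 3.11.15, numpy 2.4.6, pandas 2.3.3, statsmodels 0.14.6 and matplotlib 3.10.9 were used.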

Additional observations from a re-analysis of the deposited data

How the results depend on the processing

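The sign of the members' median did not depend on the settings tried. The median log2 ratio of the members ran from 0.20 to 0.29 over centring each array on its median, quantile normalization, a loess correction for signal (span 0.3), an offset of 32, the mean or median over probe sets, leaving out probe sets whose names end in _s_at, _x_at or _a_at, and floors at the 40th, 50th and 60th percentile. Members above 0 were 46 of 46 after quantile normalization and loess and 44 of 46 with the median over probe sets. Without probe sets of the suffixes _s_at, _x_at or _a_at they were 34 of 37. The share of all genes at or above the floor above 0 moved from 40.6% with centring to 51.5% with quantile normalization, while the members stood 0.19 to 0.30 above the median of all genes. The threshold decided the count of higher members, which was 0 at 1.5-fold and 2-fold and 24 at 1.2-fold. The count at 1.2-fold also moved with the setting. With the values as deposited, 22 of 42 members at or above the floor were that much higher, where 923 of 11329 such genes were. The member count was 12 with the offset of 32, 14 with the mean over probe sets and 25 with quantile normalization. Counts of all genes under those settings are not given, so whether the movement was particular to the members was not tested. Role medians moved by more than 0.1 in 6 cases. The passenger complex moved to 0.11 without probe sets of those suffixes. The kinetochore, kinesin and cytokinesis genes moved to 0.14 each with the mean over probe sets, and cytokinesis to 0.14 with the median. Kinesins moved to 0.12 with the mean over probe sets at or above the floor, an alternative added after the data were seen. Of 481 values of the 46 members under these settings, 7 changed sign, in 4 genes. Without probe sets of those suffixes Cdc20 was at 0.19, Cdca8 at -0.07, Kif11 at -0.07 and Cenpa at -0.17. The probe set left for Cenpa lay below the floor, with 28.2 in the mutant array and 31.8 in wild type. Kif11 was at -0.05 with the median over probe sets, and Cdc20 was at 0.04 after quantile normalization and 0.02 after loess. The mean for Top2a was 0.05. The causes were not tested. No paired analysis was possible because each genotype had 1 array. The number of arrays limits every value.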

Other observations

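Groups of mitotic genes outside the listed members, chosen after their values were seen, did not share one direction. The 11 measured genes of the inner kinetochore network, which binds the centromeric histone throughout the cell cycle, had a median log2 ratio of -0.01. Of these 11, 5 were above 0, where 47.3% of all genes were. The lowest was Cenpk at -0.37, with intensities of 97.6 in the mutant array and 126 in wild type. The highest was Cenpi at 0.37, with 75.1 in the mutant array and 58.0 in wild type. The 5 measured genes of augmin, which branches microtubules within the spindle, had a median of -0.02, from -0.24 for Haus2 to 0.02 for Haus6. The mean over the 4 probe sets of Haus2 was 0.01. Bub3, a checkpoint protein with roles outside mitosis, had 1216 in the mutant array and 1208 in wild type, and its log2 ratio of 0.01 stood beside 0.41 for its partner Bub1. Pttg1, which encodes securin, the inhibitor of separase, had 1094 in the mutant array and 860 in wild type, a log2 ratio of 0.35 that was 0.09 as the mean over 3 probe sets. Zwint, a kinetochore protein, had 473 in the mutant array and 616 in wild type, a log2 ratio of -0.38 with a mean of -0.25 over 7 probe sets.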
